A study of Mus musculus with 6 samples.

Results

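Local glucocorticoid action was followed through 8 genes in sorted cells of mouse mammary tumors that carried or lacked RANK: the steroid-activating enzyme gene Hsd11b1, the glucocorticoid receptor gene Nr3c1 and the receptor target genes Tsc22d3, Fkbp5, Sgk1, Zbtb16, Klf9 and Pdk4. The members were found as every gene probe whose accession carries 1 of these 8 symbols. That gave 9 of the 55681 gene probes on the array, a pair of them for Nr3c1. All 9 probes passed the filter on dim probes, and the 8 genes were 8 of the 22458 genes tested. Hsd11b1 was chosen by its log2 ratios on these arrays, and the other members with those ratios in view, so the ratios between the genotypes are given here as a description. Tests were run across all genes and serve as the background.

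RNA came from live CD45- cells, the part of a dissociated tumor without the leukocyte protein CD45, sorted from late carcinomas that grew after orthotopic transplantation. Both groups carried the MMTV-PyMT transgene, the polyomavirus middle T oncogene under a viral promoter active in mammary epithelium, on a background crossed to C57BL/6 for at least 10 generations. One group, RANK+/+, had intact RANK, the receptor activator of NF-κB encoded by Tnfrsf11a, and the other, RANK-/-, was germline null for it. Donor cells of both groups were placed into the inguinal mammary glands of syngeneic C57BL/6 females 6 to 10 weeks old. The hosts had RANK, so any host cell in the sorted fraction carried the receptor in both groups. Each 2-colour array received 1 RNA of each genotype, and 3 pairs of RNAs were each measured on 2 technical replicate arrays, A and B. Per the labels, the RANK-/- RNA was in Cy5 (red) in pair 1 and in Cy3 (green) in pairs 2 and 3, the same on arrays A and B, although the methods of the study describe a dye swap for each sample. The arrangement of the labels was used throughout, and the direction of every ratio rests on it. Separate tumors are not named in the labels for the RNAs of a genotype, so p-values measure only the spread between these samples, which may be technical. Every ratio below is log2 of the channel labelled RANK-/- over the channel labelled RANK+/+, and a ratio of 1 is a 2-fold difference.

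The Tnfrsf11a probe went against the labels. It was higher in the channel labelled RANK-/- in all 3 pairs, reading 2.03 in pair 1, 1.15 in pair 2 and 1.76 in pair 3, a mean of 1.65 ± 0.45 (SD, n = 3). Where the null allele is deleted is not given in the sources used here, so whether this probe lies in the deleted part is unknown. No pair can be set aside for it, because it ran the same way in each, and every direction below rests on the labels. The pairs also differed from each other. Across all genes tested, the Pearson correlation of the log2 ratios was 0.97 to 0.98 between arrays A and B of a pair, but -0.28 between pairs 1 and 2, 0.18 between pairs 1 and 3 and -0.08 between pairs 2 and 3. Genes are not independent replicates, and these values are a description. The median SD was 0.33 between pairs and 0.06 between arrays A and B.

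Glucocorticoids (corticosterone in mice) reach tissues through the blood, and a cell sets its own exposure with a pair of enzymes. HSD11B1 regenerates active corticosterone from its inert keto form in the endoplasmic reticulum, with NADPH supplied by H6PD, and HSD11B2 runs the reaction the other way. The active steroid enters the cell, binds the receptor NR3C1 held by HSP90 and its FKBP cochaperones, and the receptor moves to the nucleus and binds palindromic glucocorticoid response elements near target genes. Tsc22d3 (GILZ), Fkbp5, Sgk1, Zbtb16 (PLZF), Klf9 and Pdk4 are widely used as readouts of that activation. In the mammary gland, glucocorticoids act with prolactin in lactation, and Hsd11b1 is known from fibroblasts and fat cells as well as from liver.

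Promoter windows, from 250 bases before to 50 after a start site, came from the RefSeq promoter table (build GRCm38.p6). The chromosome of Nr3c1 was left out of the search of members, but not out of the counts over all windows. No window was found for Zbtb16. That left 6 of the 8 members, with 13 windows in all. Each was searched on both strands for the response element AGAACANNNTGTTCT, in which N is any base, and for either of its 6-base arms, AGAACA or TGTTCT, on its own (every full element also holds both arms). The full element was in 1 member window, of Sgk1, and in 0.00913% of all 32851 windows in the table. An arm was in 4 member windows, of Sgk1 and Tsc22d3, against 19.0% of all windows, and a stretch with up to 2 mismatches to the full element was in 2 member windows, both of Sgk1, against 1.84% of all windows. The Hsd11b1 window held neither an arm nor a near match. These are matches of letters in short windows and say nothing on whether the receptor binds there. The 250 bases before the start are shown for Hsd11b1, the member that was higher in all pairs, and for the 3 windows that carry the full element, a near match and an arm. Capitals mark the arms, the full element or the near match.
Hsd11b1, chr1:193242361-193242610, minus strand: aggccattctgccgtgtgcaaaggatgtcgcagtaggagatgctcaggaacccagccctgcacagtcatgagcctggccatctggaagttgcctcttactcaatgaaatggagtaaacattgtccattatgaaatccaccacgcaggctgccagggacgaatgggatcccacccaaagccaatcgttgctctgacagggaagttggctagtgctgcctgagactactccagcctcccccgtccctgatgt
Sgk1, window with the full element, chr10:21993640-21993889, plus strand: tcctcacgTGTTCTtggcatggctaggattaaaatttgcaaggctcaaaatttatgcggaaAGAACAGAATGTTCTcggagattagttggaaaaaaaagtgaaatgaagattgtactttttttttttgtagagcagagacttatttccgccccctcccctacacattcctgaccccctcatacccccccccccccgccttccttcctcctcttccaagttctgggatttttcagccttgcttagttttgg
Sgk1, window with the near match, chr10:21985854-21986103, plus strand: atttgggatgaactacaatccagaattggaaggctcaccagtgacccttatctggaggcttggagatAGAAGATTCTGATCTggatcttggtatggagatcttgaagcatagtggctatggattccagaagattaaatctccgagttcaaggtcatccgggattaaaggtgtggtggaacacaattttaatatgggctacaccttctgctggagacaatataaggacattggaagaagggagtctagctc
Tsc22d3, window with an element arm, chrX:140600523-140600772, minus strand: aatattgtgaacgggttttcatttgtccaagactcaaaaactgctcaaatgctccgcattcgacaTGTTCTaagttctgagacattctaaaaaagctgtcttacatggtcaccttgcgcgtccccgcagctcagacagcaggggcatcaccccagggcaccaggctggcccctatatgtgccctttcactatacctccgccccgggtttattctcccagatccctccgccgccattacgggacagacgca

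Hsd11b1 was higher in the channel labelled RANK-/- in each pair. Its log2 ratio was 1.01 in pair 1, 1.18 in pair 2 and 0.87 in pair 3, which is 2.02-fold, 2.27-fold and 1.83-fold. The mean was 1.02 ± 0.16 (SD, n = 3), or 2.03-fold. Of the 22458 genes tested, 159 had a higher mean ratio, and 20.3% had a smaller SD between pairs. It was the single member higher in all 3 pairs (1 of 8), where 9.94% of all genes tested were higher in all 3 pairs and 9.62% lower in all 3. This is the pattern for which the gene was chosen.

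The Hsd11b1 probe is spotted 10 times on each array, so each array holds its own repeat measurements. Of the 60 spots, 58 gave a value (1 spot each on arrays 2A and 2B was marked as an outlier by the scanner software), and all 58 lay above 0, from 0.78 to 1.28. The median over spots was 1.00 and 1.04 on the arrays of pair 1, 1.19 and 1.21 on those of pair 2, and 0.84 and 0.91 on those of pair 3. Spots of 1 array had an SD of 0.04 to 0.10, less than the distance between pairs 2 and 3. The raw signals are given under the labelled dye arrangement. They cannot check it, because Hsd11b1 was chosen by ratios computed with it. On array 1A the median spot read 843.5 in Cy5 (RANK-/-) over a local background of 62.5, and 332.25 in Cy3 (RANK+/+) over 30. On array 2A the RANK+/+ channel, now Cy5, read 679.5 over 64.5, and the RANK-/- channel, in Cy3, read 1117.25 over 32.5. On array 3A the values were 571 over 68.5 for RANK+/+ in Cy5 and 583.25 over 34.5 for RANK-/- in Cy3. Cy5 reads brighter than Cy3 over the whole of each array, so the channels are compared only after normalization. All 10 spots were well above background in both channels on every array. The mean of pairs 2 and 3 was 1.03, against 1.01 in pair 1, and with the dye arrangement as a term in the fit the mean was 1.02.

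**Figure D1:**
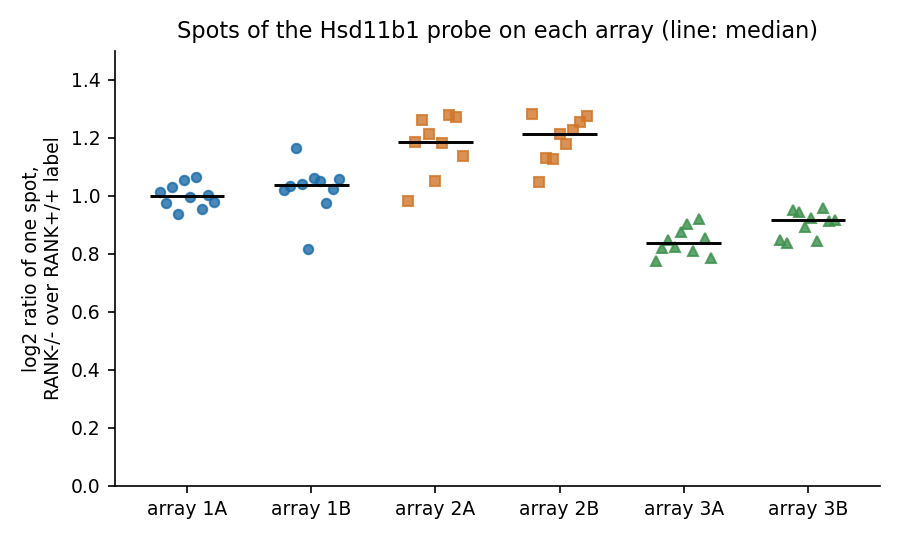
Each point is the log2 ratio of 1 spot of the Hsd11b1 probe (y axis, no unit) on each of the 6 arrays (x axis), with a line at the median of the array. All 58 spots lie above 0, those of pair 2 highest and those of pair 3 lowest.

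After normalization, the log2 intensity of Hsd11b1 in the channels labelled RANK-/- was 9.79, 10.29 and 9.54 in pairs 1, 2 and 3, and in those labelled RANK+/+ it was 8.77, 9.11 and 8.67. The groups did not overlap, with the lowest RANK-/- value 0.43 above the highest RANK+/+ value. How many of all genes tested lack such overlap was not counted, here or for the genes below. In both genotypes pair 2 was highest and pair 3 lowest. Pairs 1 and 3, the neighbours at the bottom of each genotype, lay closer together than the SD of their group (0.38 for RANK-/- and 0.23 for RANK+/+), and pair 2 lay farther above them.

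The direction of Hsd11b1 did not depend on the processing tried. Under the main setting and 11 others that keep 3 pairs, Hsd11b1 was above 0 in all 3 pairs in all 12. The lowest pair value, 0.35, was that of pair 3 with median centring in place of the intensity-dependent loess, a setting in which the median of all genes in pair 3 was -0.39.

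The partners of HSD11B1 did not share this pattern. H6pd, whose product feeds it NADPH, was lower in pair 1 (-0.76) and higher in pairs 2 and 3 (0.93 and 0.42). Srd5a1, a reductase that inactivates steroids including corticosterone, was lower in all 3 pairs, with ratios of -0.55, -0.09 and -0.63, a mean of -0.43 ± 0.29 (SD, n = 3), and its normalized levels overlapped between the genotypes. Star, which brings cholesterol to steroid synthesis, read -0.08, -0.02 and 0.21 and was above background on 4 arrays in the RANK-/- channel and 3 in the RANK+/+ channel. The opposing enzyme gene Hsd11b2 and the steroid-metabolizing genes Akr1d1 and Cyp11a1 were not well above background on any array in either channel, and Cyp11b1, for the last step of corticosterone synthesis, was on 1 array in each channel. So for those 4 genes no ratio is given.

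Nr3c1 changed sign between pairs. The probe used for the gene read -0.31 in pair 1, 0.49 in pair 2 and 0.99 in pair 3, a mean of 0.39 ± 0.65 (SD, n = 3). That mean was 0.74 without pair 1, 0.09 without pair 3, 0.16 with median centring and 0.22 with both probes averaged or with the dye arrangement as a term. Its level in the channels labelled RANK-/- was 11.60, 12.02 and 12.29 on the log2 scale, and in those labelled RANK+/+ 11.90, 11.53 and 11.30, so the groups overlapped. The dimmer probe of the gene ran lower in pair 1 and higher in pairs 2 and 3 as well, at -1.04, 0.76 and 0.43, but it set pair 2 above pair 3 and was lower by more in pair 1. Nr3c2, the mineralocorticoid receptor, which binds corticosterone too, stayed within -0.14 to 0.07 in all pairs. It was dim, with normalized levels of 6.49 to 6.65. The probe of Hsd11b2, never well above background, read 5.96 to 6.08, so the small Nr3c2 ratios say little.

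Zbtb16 showed the widest swings of the members. It encodes a zinc-finger transcriptional repressor that glucocorticoids strongly induce. Its log2 ratio was 1.51 in pair 1, -1.42 in pair 2 and 2.52 in pair 3, that is 2.84-fold higher, 2.68-fold lower and 5.75-fold higher in the channel labelled RANK-/-. The mean of 0.87 had an SD of 2.05 (n = 3), and 99.5% of all genes tested had a smaller SD. It was 0.55 without pair 1, 2.01 without pair 2 and 0.04 without pair 3. The levels of the channels labelled RANK-/- were 9.12, 7.22 and 8.97, and of those labelled RANK+/+ 7.61, 8.64 and 6.45. High and low RNAs were found in both genotypes. Arrays A and B of a pair stayed within 0.10 of each other, so the swings were between pairs of RNAs, not between arrays.

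Klf9, a Krüppel-like factor and direct receptor target, followed the same order of signs, at 0.40, -0.95 and 1.19, with a mean of 0.21 ± 1.08 (SD, n = 3). Its levels were 11.05, 10.66 and 11.88 in the channels labelled RANK-/- and 10.65, 11.62 and 10.69 in those labelled RANK+/+, so the groups overlapped. Fkbp5, the cochaperone that lowers the receptor's affinity for hormone, did so on a smaller scale, at 0.30, -0.24 and 0.32, with a mean of 0.13 ± 0.32. The levels of Fkbp5 were 11.10, 11.30 and 11.43 against 10.80, 11.54 and 11.11. The mean of Klf9 was 0.12 without pair 1, 0.79 without pair 2, -0.28 without pair 3 and -0.01 with median centring. That of Fkbp5 was 0.04 without pair 1, 0.31 without pair 2, 0.03 without pair 3 and -0.10 with median centring.

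Tsc22d3 and Sgk1 did not follow that order. Tsc22d3, which encodes the anti-inflammatory leucine zipper protein GILZ, was 0.41 in pair 1, -0.31 in pair 2 and -0.63 in pair 3, a mean of -0.18 ± 0.53 (SD, n = 3), with levels of 12.60, 12.40 and 11.90 in the channels labelled RANK-/- and 12.19, 12.71 and 12.53 in those labelled RANK+/+. Sgk1, a kinase that regulates ion transport and survival and whose window holds the full response element shown above, was 0.12, 0.37 and -0.77, a mean of -0.09 ± 0.60. Its levels were 13.51, 13.91 and 13.29 against 13.39, 13.54 and 14.06. Both were lowest in pair 3, the pair in which the other members apart from Hsd11b1 were highest. The mean of Tsc22d3 was -0.47 without pair 1, -0.11 without pair 2 and 0.05 without pair 3, and that of Sgk1 was -0.20, -0.32 and 0.25.

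Pdk4, a mitochondrial kinase that restrains pyruvate oxidation and answers to fasting as well as to glucocorticoids, was dim. It was above background on 2 arrays in the channel labelled RANK-/- and on 4 in the other. The ratio was -1.03 in pair 1, -0.43 in pair 2 and 0.69 in pair 3, a mean of -0.26 ± 0.87 (SD, n = 3), which was 0.13 without pair 1, -0.17 without pair 2 and -0.73 without pair 3. Normalized levels were 6.27, 6.19 and 6.78 in the channels labelled RANK-/- and 7.30, 6.61 and 6.09 in those labelled RANK+/+, so the groups overlapped.

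**Figure D2:**
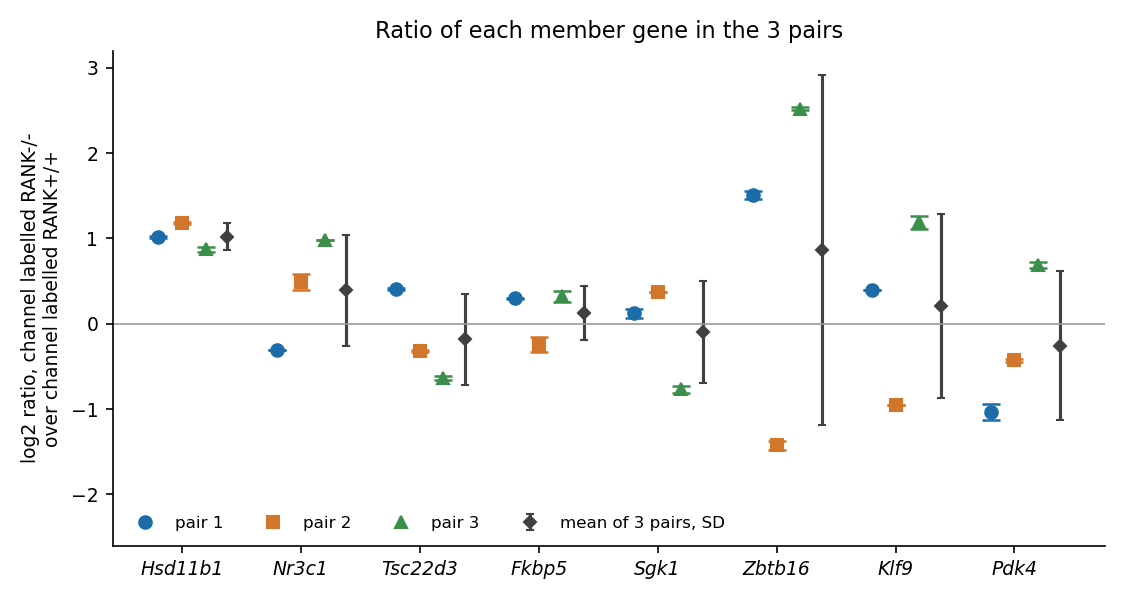
Log2 ratio of the channel labelled RANK-/- over that labelled RANK+/+ (y axis) for each of the 8 members (x axis). Symbols are the 3 pairs, short bars the technical arrays A and B, and diamonds the mean of the 3 pairs with its SD; Hsd11b1 has all 3 pairs between 0.87 and 1.18, and each other member has pairs on both sides of 0.

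Of the 8 members, then, 7 changed sign between pairs and 1 (12.5%) kept its direction, where 19.6% of all genes tested had 1 direction in all 3 pairs, so the members' count of sign changes is near the background. The means of the 7 members other than Hsd11b1 ran from -0.26 to 0.87 and their SDs from 0.32 to 2.05. The SD between arrays A and B was at most 0.09 for any member. Across all genes tested, the ratio of 88.4% differed between pairs in limma's moderated F test over the 6 arrays, which covers only the technical spread of the arrays; no member's result of it is used. Over the 8 members the median ratio was 0.35 in pair 1, -0.28 in pair 2 and 0.78 in pair 3, where that of all genes tested was 0.02, -0.01 and 0.00. In limma's test of the mean ratio, run across all genes for this background, 0 of the 22458 genes tested (0%) had an adjusted p under 0.05, the smallest being 0.999. An unadjusted p under 0.05 was found for 646 genes (2.88%). A rank product, the kind of test used in the study's methods, called 9 genes (4 higher and 5 lower). None of them was from the glucocorticoid lists outside the members. Its p-values came from a gamma approximation with Benjamini-Hochberg adjustment. The study used its own estimate of false positives, so these calls do not reproduce its list of differing genes.

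**Figure D3:**
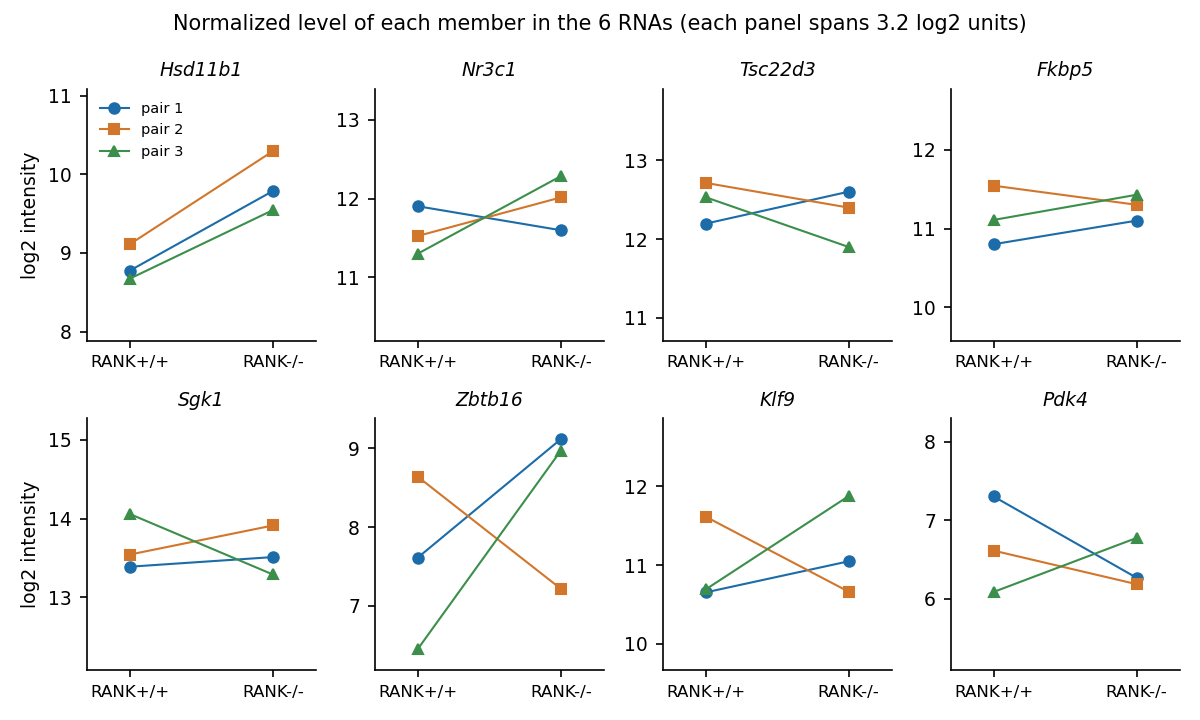
Normalized log2 intensity (y axis) of each member in the RNA labelled RANK+/+ and RANK-/- (x axis), a line joining the RNAs of a pair. The Hsd11b1 lines all rise from left to right and the groups do not overlap, whereas the lines of every other member cross.

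Beyond the members, 60 genes of glucocorticoid metabolism, reception and response were listed, and 55 of them were tested. Of the 47 tested genes that are not members, 8 were higher in all 3 pairs, 3 were lower in all 3 and 36 changed sign. That is 23.4% with the same direction in every pair, against 19.6% of all genes tested. Their median mean ratio was 0.07, and none passed limma's test, with 6 at an unadjusted p under 0.05. None, Hsd11b1 included, was at least 2-fold changed one way in all 3 pairs, as 0.0891% of all genes tested were. With the members, 9 of the 55 were higher in all 3 pairs, against 9.94% of all genes tested. With median centring in place of loess that number was 3 (Hsd11b1, Nfkbia and Irs2), against 3.82% of all genes tested. It was 9 again once each pair's median over all genes was subtracted. Over 2 pairs it was 19 without pair 1, 22 without pair 2 and 12 without pair 3. The share of all genes over 2 pairs was not counted.

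The receptor's partners went both ways. All 8 chaperone and cochaperone genes changed sign between pairs, and the median of their mean ratios was 0.06. Among 8 coregulators, Ncoa2 was higher in all 3 pairs (0.40, 0.23 and 0.79, a mean of 0.47 ± 0.29). It encodes a p160 coactivator of nuclear receptors that works with the glucocorticoid receptor both in activation and in repression. Its levels in the 3 channels labelled RANK-/- were all above those labelled RANK+/+, although with median centring a pair changed sign. Crebbp, an acetyltransferase coactivator, read 0.28, 0.03 and 0.21, and Ncoa1, another p160 coactivator, 0.00, 0.03 and 0.29. For both, another probe of the gene changed sign. The efflux pump gene Abcb1b, whose product exports steroids, was lower in all 3 pairs, at -0.09, -0.70 and -0.98. It was dim, above background on 4 arrays in the channel labelled RANK-/- and on 6 in the other. So it was not kept where every channel had to be above background. Serpina6, for the plasma carrier of corticosterone, was not well above background on any array.

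The other 26 target genes were mixed. Of these, 5 were higher in all 3 pairs, 1 was lower in all 3 and 20 changed sign. The 6 with 1 direction are 23.1% of the list, near the 19.6% of all genes tested. Nfkbia, the inhibitor of NF-κB that both glucocorticoids and NF-κB itself induce, had the highest mean of those 5, at 0.13, 1.58 and 1.66, a mean of 1.12 ± 0.86 (SD, n = 3). Irs2, an insulin receptor adaptor, read 1.26, 0.62 and 0.98, a mean of 0.95 ± 0.32, the nearest of the 5 to the mean of Hsd11b1. Lpin1, a phosphatidate phosphatase and coregulator, read 1.44, 0.14 and 1.03. The remaining members of that group, named after their values were seen, were the repressor gene Bcl6 (0.60, 0.29 and 1.33) and the small GTPase gene Rasd1 (0.31, 0.70 and 0.25). Txnip, which binds thioredoxin and limits glucose uptake, was the 1 lower gene, with -1.003, -0.67 and -0.91, a mean of -0.86 ± 0.17, and its other probe was lower in all 3 pairs too. With median centring Nfkbia and Irs2 stayed higher in all 3 pairs and Txnip lower, while Lpin1, Bcl6 and Rasd1 did not. The levels of Nfkbia, Lpin1, Bcl6 and Txnip did not overlap between the genotypes, and those of Irs2 and Rasd1 did. These genes were already picked for 1 direction in all pairs, and the share of all genes without overlap was not counted, so this is a description.

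Part of the target list shared the order of signs seen for Zbtb16, Klf9 and Fkbp5, higher in pairs 1 and 3 and lower in pair 2. This pattern was noticed after the values were seen and has no test. It was found in 12 of the 32 targets (37.5%), or 9 of the 26 that are not members (34.6%), against 18.8% of all genes tested. The 9 are Per1, Dusp1, Cebpd, Cebpb, Errfi1, Zfp36, Mt1, Lcn2 and Tat. Cebpd, a transcription factor gene of the acute-phase response, read 1.34, -1.06 and 1.59, and Errfi1, a feedback inhibitor of EGF receptors, 1.38, -1.40 and 0.70. Per1, a clock gene with a known response element, read 1.31, -0.58 and 0.56. The median over the 26 was 0.40, -0.49 and 0.54 in pairs 1, 2 and 3. With median centring the count was 5 of 32, or 8 once each pair's median over all genes was subtracted, and with the authors' normalized table it was 9. The share of all genes in this order was not counted under those settings, so these counts have no background. Others ran quite differently. Crispld2, chosen after its values were seen because it differed most between pairs, read -1.73, 3.39 and 0.90.

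**Figure D4:**
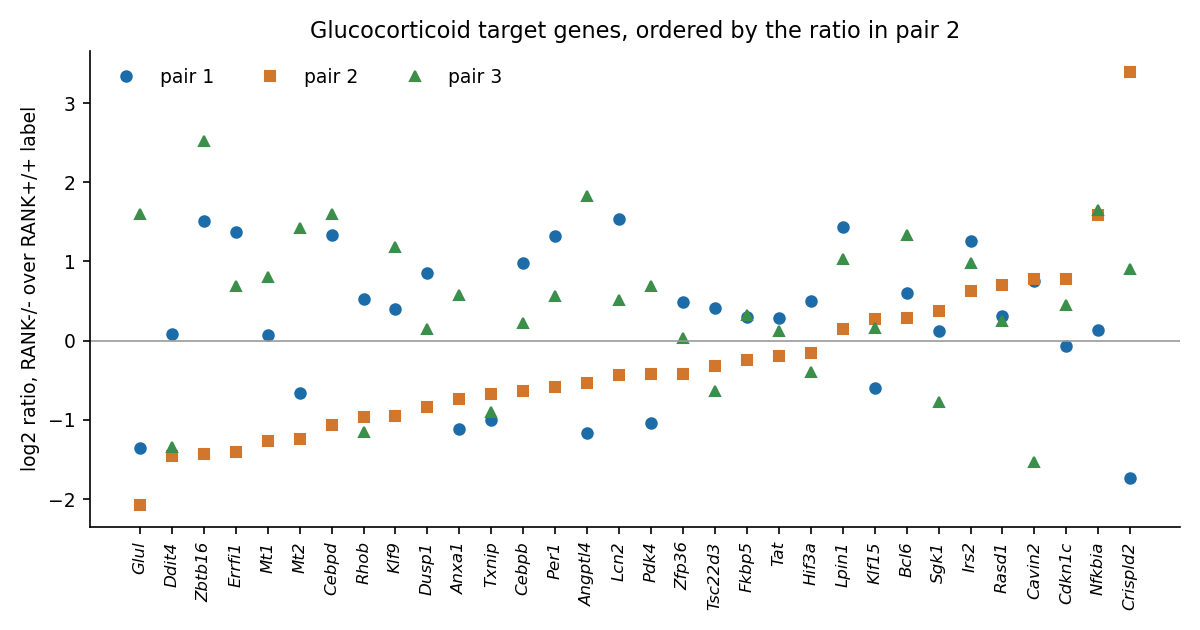
Log2 ratio (y axis) of the 32 target genes (x axis, ordered by pair 2) in the 3 pairs (symbols). Of these genes, 12 have pairs 1 and 3 above 0 with pair 2 below it; Nfkbia, Irs2, Lpin1, Bcl6 and Rasd1 have all pairs above 0 and Txnip has all below.

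Other gene lists moved with these ratios. In bulk RNA, fewer cells of a type and less RNA per cell cannot be told apart. Epithelial markers had median ratios of 0.30, -0.72 and 0.52. The order of signs of Zbtb16 was found in 4 of their 7 tested genes, against 18.8% of all genes tested. The brightest epithelial gene, the keratin gene Krt18, read 0.45, -1.34 and 1.65. In pairs 2 and 3, the summed normalized intensity of the 8 epithelial genes was 139788 and 451133 in the channels labelled RANK-/-. In those labelled RANK+/+ it was 285669 and 180810. Krt8 had no value on array 1B, so it was not tested and no sum of all 8 genes is given for pair 1. It read -0.41 on array 1A, -0.55 in pair 2 and 2.08 in pair 3. Dissociation stress genes, which answer to tissue digestion and include immediate-early genes, had medians of 0.44, -0.25 and 0.74, with 5 of 11 in the order of Zbtb16. Circadian clock genes had medians of 0.12, -0.22 and 0.18, with 6 of 12 in that order. Per1 is on both the clock list and the target list. The part of dissociation stress or clock genes in the targets' pattern was not tested. Fasting and PPAR target genes had medians of -0.57, -0.43 and 0.69 over 7 tested genes, and Pdk4, which belongs to the list, is itself the median gene in pairs 2 and 3.

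Fibroblast markers, a cell type in which Hsd11b1 is known to be expressed, were higher in the channel labelled RANK-/- in all 3 pairs for 5 of 10 genes. Of all genes tested, 9.94% were. None of the 10 markers was lower in all 3 pairs, and the median of their mean ratios was 0.97. The pair medians were 0.11, 0.59 and 1.74, and the brightest gene, the collagen gene Col1a2, read 0.61, 0.85 and 2.38. Their summed intensity was 149830 to 244837 in the channels labelled RANK-/- and 57455 to 156509 in those labelled RANK+/+. The log2 ratio of that sum was 0.18, 0.73 and 2.09 in pairs 1, 2 and 3, so it was highest in pair 3, where Hsd11b1 was lowest. The part of fibroblast RNA in the Hsd11b1 ratio was not tested. All 10 genes were above background in every channel. Of the adipocyte markers, Adipoq, Plin1, Cidec and Lep were not well above background on any array. The summed intensity of the 8 adipocyte genes was 1390 to 2051 in the channels labelled RANK-/- and 1313 to 1920 in those labelled RANK+/+, and their brightest gene, Fabp4, read 0.02, 0.19 and 0.59.

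Myoepithelial markers had medians of 0.14, 0.00 and 0.03 (brightest gene Acta2), endothelial markers 0.02, -0.10 and 0.52 (Kdr), and leukocyte markers -0.26, 0.07 and 0.13 (Itgam). The order of signs of Zbtb16 was found in 3 of 7 endothelial, 1 of 6 myoepithelial and 1 of 9 leukocyte genes tested. Of all genes tested, 18.8% had it. Despite the CD45- gate, the gene for CD45, Ptprc, was above background on 5 arrays in the channel labelled RANK-/- and 4 in the other, and the summed leukocyte intensity was 9716 to 12149 in the channels labelled RANK-/- and 9151 to 29678 in those labelled RANK+/+, the highest value being that of pair 1. Of the 6 skeletal muscle markers, 2 were tested, with the brightest, Acta1, at 0.14, 0.07 and -0.02, while Ckm, Myh4 and Myog were not well above background on any array.

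**Figure D5:**
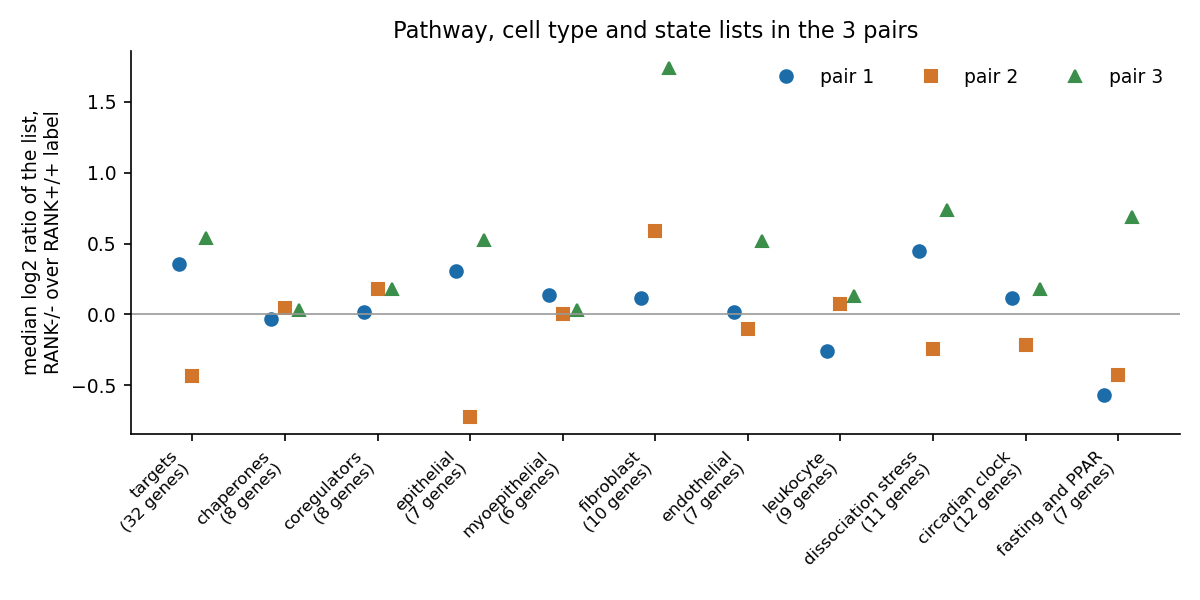
Median log2 ratio (y axis) of gene lists (x axis, with the number of genes tested) in the 3 pairs (symbols). The targets, epithelial, endothelial, dissociation stress and clock lists have pairs 1 and 3 above 0 and pair 2 below it. The fibroblast list rises from 0.11 in pair 1 to 1.74 in pair 3.

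Genes beside Hsd11b1 on its chromosome, among the nearest tested genes in RefSeq gene order, did not share its ratios. Before it, Utp25 and A130010J15Rik had mean ratios of 0.07 and 0.09, and after it G0s2, Lamb3 and Camk1g had 0.05, -0.90 and -0.05. Of these 5 genes, Lamb3, a laminin subunit gene, was lower in all 3 pairs at -1.90, -0.29 and -0.51, and each of the others had pairs on both sides of 0.

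Likeness to a member was measured as the root mean square difference of the log2 ratios over the 3 pairs. The genes nearest to Hsd11b1 among all tested were Slc25a34 (0.14), Vmn1r65 (0.14), Mndal (0.16), Tapbpl (0.18) and Cxcl1 (0.19), whose ratios were 1.15, 1.39 and 1.09. No glucocorticoid gene was among them. For the other members the nearest gene was Kcp for Nr3c1 (0.06), Tbcc for Fkbp5 (0.02), Vrk1 for Sgk1 (0.03), Bricd5 for Zbtb16 (0.24), Ptafr for Klf9 (0.04) and Myo5b for Pdk4 (0.09), and for Tsc22d3 a probe named by a genome position, with no gene symbol (0.02). With 3 values a gene and 22458 genes, close matches are found for most patterns, and the widest one, Zbtb16, had the most distant match.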

How the data were processed

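CD45- RNA of the 2 genotypes was measured on 6 two-colour Agilent mouse arrays of 1 slide and 1 scan date. Spots were extracted by the authors in Feature Extraction 10.7.3.1. Per spot and channel, their deposited tables hold raw median signal and background intensity, processed intensity, and a log10 ratio of the processed channels. The deposited series table holds log2 ratios normalized by the authors, with scale and centring unstated. Column medians were -0.01 to 0.00, and it correlated at 0.83 to 0.86 with the RANK-/- over RANK+/+ scanner ratio on every array, which gives its direction. Processed intensities and the series table served as alternatives only.

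Median signals were corrected with normexp (offset 50), control spots (3671 an array) and outlier spots (212 to 260) were removed, and ratios were normalized by loess (span 0.3) within and Aquantile between arrays in limma 3.58.1 (R 4.3.3). Spots of a probe and then arrays A and B were averaged, so a pair was 1 replicate. A probe was kept where, for 1 genotype, its channel was flagged well above background on A and B in 2 or more pairs, which held for 30231 probes (54.3%). The brightest probe stood for a gene. Of all 55681 gene probes, 28026 matched a RefSeq symbol. Of the 22458 genes tested, 14665 had such a symbol, and the others stood under the array's own identifier. Per array and channel, 51.9% to 58.8% of gene probes were above background, and 0 gene spots were saturated. The number of arrays limits precision. Ratios were tested with limma against 0 over 3 pairs, with Benjamini-Hochberg adjustment over all genes and a threshold of 0.05, and between pairs with limma's F test. The fits were run on simulated data. For the test against 0, these had shifts larger than the Hsd11b1 ratio and a spread between pairs below the median SD of the data. So they do not show how small a difference can be found here.

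Named are the members, all enzyme and receptor genes, the 3 highest and 3 lowest same-direction genes of the other glucocorticoid lists, Tnfrsf11a, genes of like pattern, neighbours and the brightest marker genes; exceptions are marked, and 1 item that the rule would name is not reported here. The members, lists and rules were chosen with earlier results of these data known.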

Additional observations from a re-analysis of the deposited data

Results flagged for a closer look

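The Nr3c1 and Tsc22d3 ratios had 1 sign in pair 1, the single pair with RANK-/- in Cy5, and the other sign in both pairs with RANK-/- in Cy3. For Nr3c1 the mean of pairs 2 and 3 minus pair 1 was 1.04 on the log2 scale, and for Tsc22d3 it was -0.88. The difference was not tested: 1 pair stands alone in its dye arrangement, so pair and dye cannot be told apart.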

How the results depend on the processing

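The Hsd11b1 mean ratio kept its direction in 16 alternatives, from 0.84 to 1.12. It moved by more than its SD once, to 0.84 with median centring in place of loess, which also shifted the median of all genes from 0.00 to -0.14, and was 0.94 to 1.10 without each pair in turn. Under median centring the glucocorticoid genes higher in all 3 pairs numbered 3. Of all genes tested 3.82% were, against 9.94% in the main setting. The targets in the order of signs of Zbtb16 numbered 5 (a count whose alternatives were added after the data were seen). The share of all genes in that order was not counted under median centring. Without each pair in turn, 12 to 22 glucocorticoid genes were higher in both pairs left. Every gene higher in all 3 pairs is among them, and the share of all genes over 2 pairs was not counted. The calls between genotypes without each pair in turn were 0, and genes that differed between pairs numbered 16054 to 16888 of 22458. Calls between genotypes were 0 in each limma fit, with 459 (without pair 3) to 1883 (without pair 2) genes at an unadjusted p under 0.05, and 9 by rank product. With no replicate block, the channels taken as 3 and 3 samples, 0 genes were called and 827 had an unadjusted p under 0.05. Same-numbered channels did not deviate together (correlations of -0.03, -0.22 and -0.04), but each pair shares its arrays. Of the means of the other members, each moved by over 1.5 times without at least 1 pair. The sign of the mean changed for Tsc22d3, Sgk1 and Klf9 without pair 3, for Pdk4 without pair 1, and for Fkbp5 and Klf9 with median centring; the cause was not tested. Signal over background limits Pdk4 most, which was not kept where every channel had to be above background.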
